A study of Arabidopsis thaliana with 8 samples.

Results

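The 42 genes described here are the nuclear genes of Arabidopsis thaliana for the light-harvesting antenna (20 genes, 6 LHCA and 14 LHCB), photosystem I (12 PSA genes) and photosystem II (10 PSB genes). They were taken by locus identifier as members of these families. That rule uses no measured value, but it was set with earlier results of these data known. All 42 were found among the 37336 genes of the deposited tables, and 41 had enough counts to be tested. RNA was sequenced from above-ground tissue of 6-week-old plants grown at 21 °C with 8 h of light and 16 h of dark. There were 8 genotypes with 3 biological replicate libraries each, 24 libraries in all. All plants carry summ2-8, an allele of the immune receptor gene SUMM2, and plants with summ2-8 as their single mutation serve as the control. The other genotypes add to summ2-8 the mutations pat1-1, path1-4 and path2-1, which lie in PAT1, PATH1 and PATH2, the Arabidopsis genes for the PAT1 family of mRNA decapping activators. They are 3 single genotypes (pat1-1, path1-4 and path2-1), 3 double genotypes (pat1-1path1-4, pat1-1path2-1 and path1-4path2-1) and the triple combination (pat1-1path1-4path2-1), named here without summ2-8. Each of the mutated genes is represented by 1 allele. Pots of 2 sizes were used. Which genotype grew in which size, the hour of harvest and whether a library came from 1 plant or a pool are not in the labels.

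Photosystem II takes electrons from water and photosystem I passes them on to ferredoxin, each with chlorophyll-binding antenna proteins around it. LHCA proteins are the antenna of photosystem I. LHCB proteins form the trimeric LHCII complex and the smaller linker antennae of photosystem II. The reaction centre proteins themselves are encoded in the chloroplast, while the genes described here are transcribed in the nucleus and their products imported. In leaves these transcripts are among the most abundant, and light, the circadian clock and the GLK transcription factors are known to control them.

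The libraries held between 14187145 and 39180748 counts, of which 0.888 to 2.96% fell on chloroplast genes. Replicates of a genotype correlated at r = 0.987 to 0.997 across genes, which are not independent replicates. The first principal component (34.7% of the variance) set the 12 libraries with pat1-1 apart from the 12 without it, and the second (14.5%) set apart the 6 libraries of the doubles pat1-1path2-1 and path1-4path2-1. The mutated genes still gave transcript. PAT1 (AT1G79090) was at 75.3% of the control in pat1-1 (edgeR adjusted p = 0.00538), PATH1 (AT3G22270) at 78.0% in path1-4 (edgeR adjusted p = 0.0250) and PATH2 (AT4G14990) at 105% in path2-1 (edgeR adjusted p = 0.785). PAT1 and PATH1 were also called lower in pat1-1path1-4 (63.5 and 78.6%) and the triple combination (77.7 and 86.3%). In the doubles with path2-1 they were not called lower. PAT1 was at 90.3% in pat1-1path2-1 (edgeR adjusted p = 0.258) and PATH1 at 93.6% in path1-4path2-1 (edgeR adjusted p = 0.344). PATH1 was at 131% in pat1-1path2-1, which does not carry path1-4 (edgeR adjusted p = 0.000149). A count per gene does not tell intact from truncated transcripts.

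In the control, the 42 genes together held 20.8 ± 0.994% of all TPM (transcripts per 1000000, a level per length; mean ± SD, n = 3 libraries here and for all levels below). The antenna held 10.8 ± 0.801%, photosystem I 5.63 ± 0.0673% and photosystem II 4.31 ± 0.132%. LHCB1.3 (AT1G29930), an LHCII gene also known as CAB1, was highest at 30279 ± 2686 TPM. Next in order came PSAD1 (AT4G02770, 12004 ± 467 TPM), for the ferredoxin-docking subunit of photosystem I, PSAF (AT1G31330, 11097 ± 193 TPM), for its plastocyanin-docking subunit, and PSBR (AT1G79040, 10057 ± 13.5 TPM), for a small subunit of photosystem II. PSAD1 and PSAF differed by more than their SDs, while LHCB1.4 (AT2G34430, 5872 ± 940.1 TPM) and LHCB3 (AT5G54270, 5860.1 ± 391 TPM), both of LHCII, did not. At the low end stood PSBS (AT1G44575, 502 ± 74.2 TPM), the sensor of photoprotective energy dissipation, LHCA5 (AT1G45474, 106 ± 11.9 TPM) and LHCA6 (AT1G19150, 95.3 ± 16.9 TPM), which link photosystem I to the NDH complex, and LHCB4.3 (AT2G40100, 26.4 ± 1.75 TPM), an atypical form of the linker antenna CP29. LHCA5 and LHCA6 overlapped within their SDs. Counts behind the tested members ran from 334 (LHCB4.3) to 835976 (LHCB1.3) per library.

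LHCB1.5 (AT2G34420), an LHCII gene, was listed at 0 in all 24 libraries. In the TAIR10.1 annotation its 1045 exon bases (chromosome 2, 14522524 to 14523568) lie wholly within exons of a long non-coding RNA gene on the opposite strand. Of the 344 protein-coding genes whose exon bases are all shared in this way, 338 (98.3%) were listed at 0. That compares with 13.0% of 20818 genes that share none and 4.22% of 6282 that share some. A listed 0 for LHCB1.5 therefore does not show that the gene was silent. Part of the exon bases was shared with an opposite strand in other members, most in PSAG (61.4%), PSAH1 (53.3%), LHCB2.3 (40.6%), PSAE1 (34.1%) and PSAH2 (24.8%). Smaller shares were found in further members, among them LHCB6 (20.4%), LHCB3 (15.0%) and LHCB1.3 (8.78%). The strand setting of the counting is not given in the sources used here, so the single values of these genes are less certain.

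The sequence before the start is described next for all 42 members. The 250 bases before each annotated start were read from the TAIR10.1 genome (RefSeq) and searched on both strands. The GLK core CCAATC was present in 10 of 20 antenna genes (50%), 0 of 12 photosystem I genes and 1 of 10 photosystem II genes, against 10.2% of 27443 promoters of the same length. Within 100 bases the antenna count was 9 of 20 (45%), against 4.32% of all promoters. The G-box CACGTG was found in 8 of 42 members (19.0%, against 6.49% of all promoters), the I-box GATAAG in 9 (21.4%, against 12.3%) and the CCA1 site AAAAATCT or AACAATCT in 6 (14.3%, against 8.38%). The evening element AAAATATCT was found in 1 (2.38%, against 2.36%), LHCA5. These are matches of letters and not shown binding sites. In the triple combination 6 of 9 tested antenna genes with the GLK core were called lower than the control, and 6 of 10 without it. The calls are at an edgeR adjusted p below 0.05, at which 22.6% of all genes were called lower. The medians were -0.48 and -0.42 on the log2 scale.

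The promoters of LHCB1.3 (chr1:10477635-10477884, plus strand) and LHCB1.1 (chr1:10475970-10476219, minus strand) are printed because these neighbouring genes, transcribed away from each other, went different ways in pat1-1. That of LHCB4.1 (chr5:208616-208865, plus strand) is printed because it holds the GLK core in 2 copies and a G-box. The promoter of LHCA2 (chr3:22745264-22745513, plus strand) is printed as a promoter in which none of the motifs was found. This gene fell in every genotype with pat1-1. Other members that fell in the triple combination also had none of the motifs, among them LHCB3, LHCB5, PSAE1 and PSBP1. Capitals mark the GLK core on either strand in LHCB1.3 and LHCB4.1, the G-box in LHCB4.1 and the CCA1 site in LHCB1.1.
LHCB1.3: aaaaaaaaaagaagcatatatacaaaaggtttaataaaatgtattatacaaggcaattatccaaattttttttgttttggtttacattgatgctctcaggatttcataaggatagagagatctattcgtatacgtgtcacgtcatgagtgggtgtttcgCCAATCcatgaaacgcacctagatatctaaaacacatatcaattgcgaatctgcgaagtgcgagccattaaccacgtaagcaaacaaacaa
LHCB1.1: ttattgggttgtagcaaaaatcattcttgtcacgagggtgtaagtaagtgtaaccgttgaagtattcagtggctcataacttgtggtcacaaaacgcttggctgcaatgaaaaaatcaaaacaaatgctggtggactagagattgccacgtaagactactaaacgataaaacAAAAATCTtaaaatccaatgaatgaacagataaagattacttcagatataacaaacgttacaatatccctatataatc
LHCB4.1: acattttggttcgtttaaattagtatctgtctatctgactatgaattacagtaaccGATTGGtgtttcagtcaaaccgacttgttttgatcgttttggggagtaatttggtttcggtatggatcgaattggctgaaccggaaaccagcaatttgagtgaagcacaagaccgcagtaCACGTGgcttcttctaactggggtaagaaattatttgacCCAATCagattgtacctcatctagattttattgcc
LHCA2: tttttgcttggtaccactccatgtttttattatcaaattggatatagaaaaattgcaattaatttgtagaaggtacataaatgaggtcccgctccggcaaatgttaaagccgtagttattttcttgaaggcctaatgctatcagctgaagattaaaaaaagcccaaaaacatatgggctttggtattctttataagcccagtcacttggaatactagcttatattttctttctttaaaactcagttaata

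The triple combination, compared with the control, asks what mutation of all 3 genes changed. Of the 41 tested members 25 fell and 0 rose, in edgeR's quasi-likelihood test at a Benjamini-Hochberg adjusted p below 0.05 over all 20346 genes tested, the threshold behind fell, rose and called throughout. Beside this, 22.8% of all genes were called higher and 22.6% lower. The 25 comprised 3 of 6 LHCA, 9 of 13 LHCB, 9 of 12 photosystem I and 4 of 10 photosystem II genes. Median log2 fold changes were -0.25 for LHCA, -0.54 for LHCB, -0.32 for photosystem I and -0.20 for photosystem II, and 0.00 over all genes. In 25 members all 3 triple libraries lay below all 3 control libraries, against 26.2% of all genes. In tissue RNA, fewer cells of a type and less RNA per cell cannot be told apart. The p-values cover the spread between libraries. With 1 of the 6 compared libraries left out at a time the count of called members was 20 to 29, and with only the 6 compared libraries 19 fell.

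**Figure D1:**
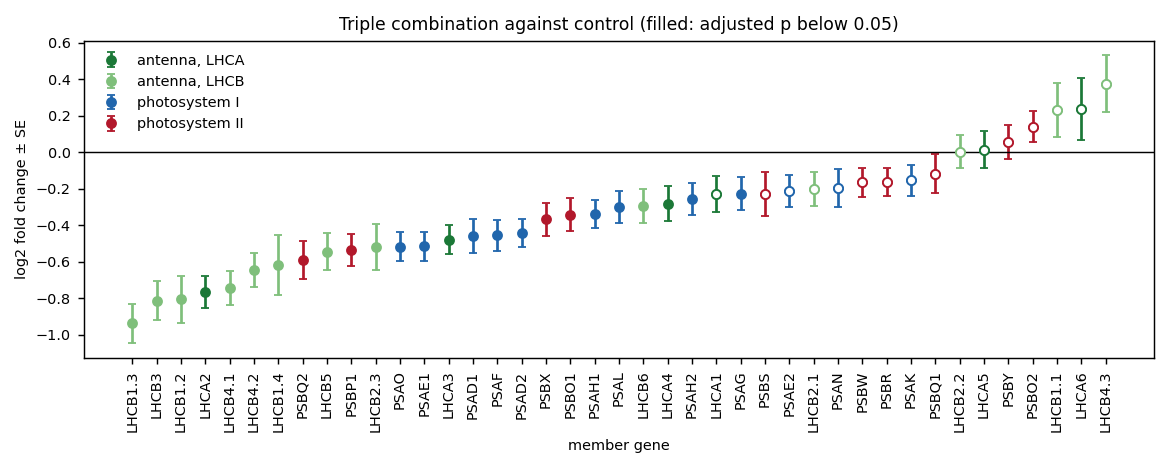
Log2 fold change with SE (vertical axis) of the 41 tested members in the triple combination against the control, ordered by value and coloured by class, with filled points for an edgeR adjusted p below 0.05. The 25 filled points run from -0.94 (LHCB1.3) to -0.23 (PSAG), and no filled point lies above 0.

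Among the antenna genes of photosystem I, LHCA2 (AT3G61470), LHCA3 (AT1G61520) and LHCA4 (AT3G47470) fell and LHCA1 (AT3G54890), LHCA5 and LHCA6 were not called. LHCA2, whose protein pairs with LHCA3, had 4746, 5106 and 5067 CPM (counts per 1000000, scaled with TMM factors) in the control and 3310.0, 2621 and 2853 in the triple combination. All 3 triple libraries were far below the control, at -0.76 ± 0.09 on the log2 scale (± SE; edgeR adjusted p = 6.56e-07). LHCA3 had 3912, 4359 and 4414 CPM against 3319, 2857 and 2924, again with no overlap (-0.48 ± 0.08, edgeR adjusted p = 5.35e-05). LHCA4, whose protein pairs with LHCA1, had 5623, 6452 and 6729 CPM against 5872, 4766 and 4840.2. Its groups overlapped through triple replicate 1, the change was -0.28 ± 0.10 (edgeR adjusted p = 0.0229), and the call ended without control replicate 2 (0.0593) or 3 (0.0847), without triple replicate 2 (0.112) or 3 (0.0918), with only the compared libraries (0.119) and without the 2 doubles with path2-1 (0.0544). LHCA1 had 6788, 7836 and 8073 CPM against 7305, 5889 and 6179, with triple replicate 1 inside the control range (-0.23 ± 0.10, edgeR adjusted p = 0.0590). The rare LHCA5 had 64.8, 75.8 and 85.7 CPM against 80.1, 73.7 and 75.0 (0.01 ± 0.10), and LHCA6 57.0, 78.5 and 85.6 against 98.8, 82.0 and 80.3 (0.24 ± 0.17). For both of these rare genes the groups overlapped and neither was called.

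LHCB genes showed the widest spread. LHCB1.3 had 21511, 25920.0 and 26818 CPM in the control and 14769, 12168 and 11840.0 in the triple combination, which left it at 52.2% of the control (-0.94 ± 0.11, edgeR adjusted p = 6.93e-07). Even the highest triple library was below the lowest control library. LHCB3, for a subunit of the LHCII trimers next to photosystem II, had 4333, 4962 and 5209.9 CPM against 3320.2, 2464 and 2477 (-0.81 ± 0.11, edgeR adjusted p = 3.72e-06). LHCB4.1 (AT5G01530), for CP29, had 4240.3, 5095 and 4939.8 CPM against 3178, 2611 and 2745 (-0.74 ± 0.09, edgeR adjusted p = 2.35e-06). In both genes the groups did not overlap. LHCB1.2 (-0.81 ± 0.13) and LHCB1.4 (-0.62 ± 0.17) of LHCII fell too, as did LHCB4.2 (-0.64 ± 0.09), the second CP29 gene, and LHCB5 (-0.54 ± 0.10), for CP26. LHCB2.3 (-0.52 ± 0.13), of the LHCII type that is phosphorylated in state transitions, and LHCB6 (-0.29 ± 0.09), for CP24, complete the 9. The call of LHCB6 ended in 5 of the settings tried, among them removal of length and GC trends (-0.17, edgeR adjusted p = 0.118). LHCB2.1 (-0.20 ± 0.09), LHCB2.2 (0.00 ± 0.09) and LHCB1.1 (0.23 ± 0.15) were not called.

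LHCB4.3, whose transcript is known to accumulate in strong light, had 26.03, 26.02 and 24.1 CPM in the control and 33.2, 32.9 and 32.6 in the triple combination. Every triple library was above every control library, at 0.38 ± 0.16, but the test was missed (edgeR adjusted p = 0.0560). It was the single member with all triple libraries above the control, against 26.2% of all genes.

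Photosystem I subunits were all below 0 in the triple combination, from -0.52 to -0.15, and 9 of 12 fell. PSAE1 (AT4G28750), for a stromal subunit next to the ferredoxin site, had 2154, 2329 and 2286 CPM in the control and 1759, 1456 and 1524 in the triple combination (-0.51 ± 0.08, edgeR adjusted p = 2.12e-05). PSAO (AT1G08380), for a subunit on the side where LHCII docks, had 2266, 2466 and 2577 CPM against 1810.2, 1637 and 1663 (-0.52 ± 0.08, edgeR adjusted p = 2.59e-05). PSAD2 (AT1G03130), the second gene for the ferredoxin-docking subunit, had 4461, 4477 and 4579 CPM against 3631, 2947 and 3368 (-0.44 ± 0.08, edgeR adjusted p = 7.46e-05). In these 3 genes the groups did not overlap. PSAD1 had 9142, 8866 and 9068 CPM against 7046, 5456 and 7224 (-0.46 ± 0.09, edgeR adjusted p = 0.000450), and triple replicate 2 was lowest. PSAF (-0.45 ± 0.09), PSAH1 (-0.34 ± 0.08) and PSAL (-0.30 ± 0.09), the last 2 at the LHCII docking side, also fell, as did PSAH2 (-0.26 ± 0.09) and PSAG (-0.23 ± 0.09), a peripheral subunit next to LHCA1. The calls of PSAL, PSAH2 and PSAG ended with only the compared libraries (edgeR adjusted p = 0.0793, 0.064 and 0.128) and without triple replicate 2 (0.0695, 0.0866 and 0.168). Without control replicate 3 those of PSAH2 (0.077) and PSAG (0.125) ended, and that of PSAG ended in 18 settings in all (0.0502 to 0.187), among them removal of single libraries of genotypes outside the comparison. PSAK (AT1G30380), the peripheral subunit next to LHCA3, had 1239, 1411 and 1388 CPM against 1297, 1155 and 1181, with overlap (-0.15 ± 0.08, edgeR adjusted p = 0.146). PSAE2 (-0.21 ± 0.09) and the lumenal subunit gene PSAN (-0.19 ± 0.10) were not called either.

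Of the photosystem II genes, 4 fell and 6 were not called. PSBQ2 (AT4G05180), for an extrinsic protein of the oxygen-evolving complex, had 2404, 2523 and 2578 CPM in the control and 1996, 1462 and 1534 in the triple combination (-0.59 ± 0.10, edgeR adjusted p = 9.90e-05). PSBP1 (AT1G06680), for another extrinsic protein of that complex, had 4190.2, 4789.9 and 4718 CPM against 3508, 2789.8 and 3147 (-0.54 ± 0.09, edgeR adjusted p = 4.74e-05). PSBX (AT2G06520), for a small membrane subunit, had 1245, 1463 and 1484 CPM against 1188, 1040.3 and 1023 (-0.37 ± 0.09, edgeR adjusted p = 0.00272). None of these 3 genes overlapped between the groups. PSBO1 (AT5G66570), for the protein that stabilises the manganese cluster, fell (-0.34 ± 0.09, edgeR adjusted p = 0.00470; 0.0623 with only the compared libraries). Its paralog PSBO2 (AT3G50820) had 1359.7, 1607 and 1610.2 CPM against 1859.8, 1519 and 1668 (0.14 ± 0.08, edgeR adjusted p = 0.176), so the ranges overlapped. PSBR had 5077, 5276 and 5341 CPM against 5016, 4267 and 4734, all triple libraries below the control (-0.16 ± 0.08, edgeR adjusted p = 0.0869). PSBS had 484, 666 and 660.3 CPM against 579, 450.0 and 517, with control replicate 1 inside the triple range (-0.23 ± 0.12, edgeR adjusted p = 0.125). The small subunit genes PSBW (-0.16 ± 0.08) and PSBY (0.06 ± 0.10) and the extrinsic protein gene PSBQ1 (-0.12 ± 0.11) were not called.

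Summed levels give the weight of each class. The 42 genes held 15.8 ± 1.19% of TPM in the triple combination, against 20.8 ± 0.994% in the control. The antenna share went from 9.89 to 11.4% in the control libraries to 7.10 to 8.601%, and photosystem I from 5.56 to 5.70% to 4.05 to 4.56%, without overlap in either class. Photosystem II went from 4.16 to 4.39% to 3.55 to 4.00%, also without overlap. Within libraries, antenna TPM was 2.504 ± 0.112 times photosystem II TPM in the control and 2.03 ± 0.141 times in the triple combination. LHCB TPM was 3.21 ± 0.105 times LHCA TPM in the control and 2.81 ± 0.0511 times in the triple combination. The ratio of antenna to photosystem I was lowest in pat1-1path2-1, at 1.54 to 1.70 against 1.78 to 2.00 in the control and 1.60 to 1.88 in the triple combination. These sums are descriptions without a test.

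**Figure D2:**
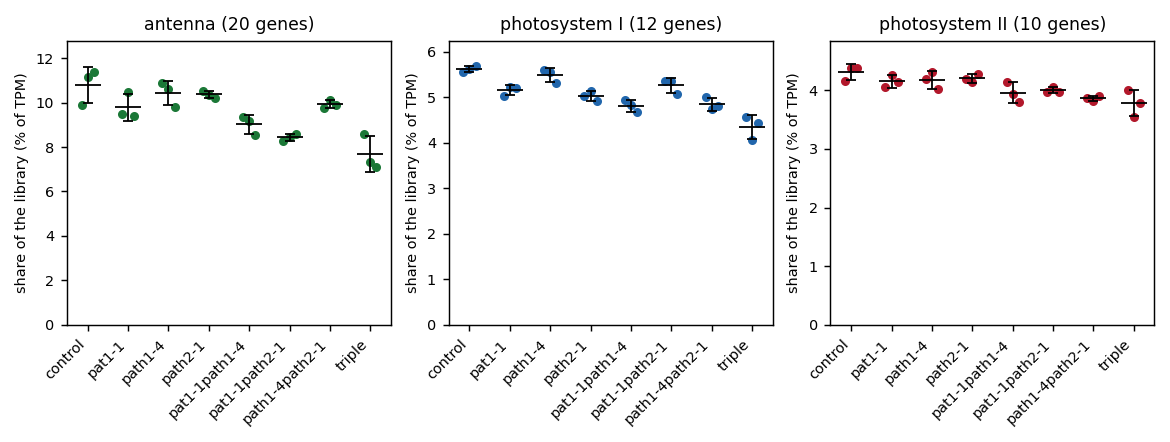
Share of a library's TPM (vertical axis, percent) held by the antenna, photosystem I and photosystem II genes in each of the 24 libraries, by genotype, with points for libraries and bars for mean ± SD. The triple combination has the lowest mean in each panel, with 7.68 ± 0.808% for the antenna against 10.8 ± 0.801% in the control.

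The single genotypes ask what each mutation changed alone. In pat1-1, 1 member rose and 3 fell of 41, where 12.0% of all genes were called higher and 10.9% lower. LHCB1.1 (AT1G29920) had 3446, 4791 and 5451 CPM in the control and 6676, 6719 and 5368 in pat1-1 (0.45 ± 0.15, edgeR adjusted p = 0.0316), with overlap between the ranges. LHCB1.3 had 18374, 21134 and 17734 CPM in pat1-1, all below the control (-0.38 ± 0.11, edgeR adjusted p = 0.0160). LHCA2 (-0.30 ± 0.09, edgeR adjusted p = 0.0175) and PSAD2 (-0.21 ± 0.08, edgeR adjusted p = 0.0468) fell as well. Each of these 4 calls ended in at least 1 setting. The count was 2 without control replicate 1 or 3 or pat1-1 replicate 3, 1 without pat1-1 replicate 1, 0 without control replicate 2 and 0 with only the compared libraries.

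In path1-4 no member was called by edgeR, at an unadjusted p below 0.05 the count was 0, and DESeq2 called 0. Of all genes 0.177% were called by edgeR, and 10.5% had an unadjusted p below 0.05. Members lay between -0.22 and 0.06. In path2-1 edgeR also called 0 members (0.0197% of all genes). Of the 41 members 14 had an unadjusted p below 0.05, all lower, against 13.9% of all genes in either direction. DESeq2 called 4 members lower, beside 30 of 28486 genes called higher and 71 lower. In this genotype 40 of 41 members lay below the control, with a median of -0.15 against 0.01 over all genes. In 13 members all path2-1 libraries were below all control libraries, against 7.06% of all genes, and 7 of the 13 were photosystem I genes. PSAF had 8424, 8957 and 9198 CPM in the control and 7061, 7288 and 6075 in path2-1 (-0.38 ± 0.09, edgeR adjusted p = 0.113), and PSAD1 had 7054, 7332 and 6786 (-0.35 ± 0.09, edgeR adjusted p = 0.162). Both were below the control in every path2-1 library without passing the test.

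The double genotypes had more calls. In pat1-1path1-4, 13 members fell and 1 rose (15.8% of all genes were called higher and 15.4% lower), namely 2 LHCA, 5 LHCB, 5 photosystem I and 1 photosystem II gene, with LHCB4.3 rising. LHCB1.3 (-0.55 ± 0.11) and LHCA2 (-0.43 ± 0.09) had the largest decreases. LHCB4.3 had 45.9, 29.6 and 26.7 CPM against 26.03, 26.02 and 24.1 in the control (0.42 ± 0.16, edgeR adjusted p = 0.0465), and the rise rested on replicate 1, without which it was 0.15 (edgeR adjusted p = 0.427). The count of 14 was 7 without control replicate 2 or 3, 6 without pat1-1path1-4 replicate 3, 9 without the 2 doubles with path2-1 and 6 with only the compared libraries. The calls of PSAD2, LHCB1.3, LHCA2, PSAE1 and LHCB4.1 held in every setting.

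In pat1-1path2-1, 16 members fell and 1 rose (15.9% of all genes were called higher and 16.7% lower), and 11 of the 16 were antenna genes, 9 of them LHCB. LHCB1.4 had 4090.4, 5328 and 5959.7 CPM in the control and 3064, 3034 and 3353 in pat1-1path2-1 (-0.70 ± 0.17, edgeR adjusted p = 0.00281), with no overlap. LHCB1.3 was at -0.55 ± 0.11, LHCB2.3 at -0.52 ± 0.13 and LHCA2 at -0.50 ± 0.09, while 3 photosystem I genes (PSAE1, PSAH1 and PSAO) and 2 photosystem II genes (PSBQ2 and PSBW) fell. PSBY, for a small subunit of photosystem II, rose from 5022, 5391 and 5658 CPM to 6539, 6537 and 6058 (0.25 ± 0.10, edgeR adjusted p = 0.0481), and the call ended in 21 settings, at adjusted p from 0.0506 to 0.151. The count of 17 was 10 without control replicate 2 or 3 or pat1-1path2-1 replicate 1 and 11 without replicate 3.

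In path1-4path2-1, the double without pat1-1, 9 members fell and 1 rose (9.18% of all genes were called higher and 10.3% lower). Of the 9, 5 were photosystem I genes, 3 photosystem II genes and 1 an antenna gene, LHCB1.4 (-0.56 ± 0.17). PSAF had 6455, 6433 and 6511 CPM, all below the control (-0.45 ± 0.09, edgeR adjusted p = 0.000947). PSAD1 had 6925, 6494 and 6325 CPM (-0.46 ± 0.09), and PSAD2, PSAH1 and PSAO fell by less. PSBW (-0.38 ± 0.08), PSBY (-0.28 ± 0.10) and PSBR (-0.24 ± 0.08) were the photosystem II genes. LHCA5 rose, with 95.9, 96.7 and 102 CPM against 64.8, 75.8 and 85.7 in the control (0.38 ± 0.10, edgeR adjusted p = 0.0112; 0.0666 without control replicate 1). The count of 10 was 6 without control replicate 2 or 3 or path1-4path2-1 replicate 1, 5 without replicate 3 and 6 with only the compared libraries. PSAF, PSBW and PSAD1 were called in every setting.

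**Figure D3:**
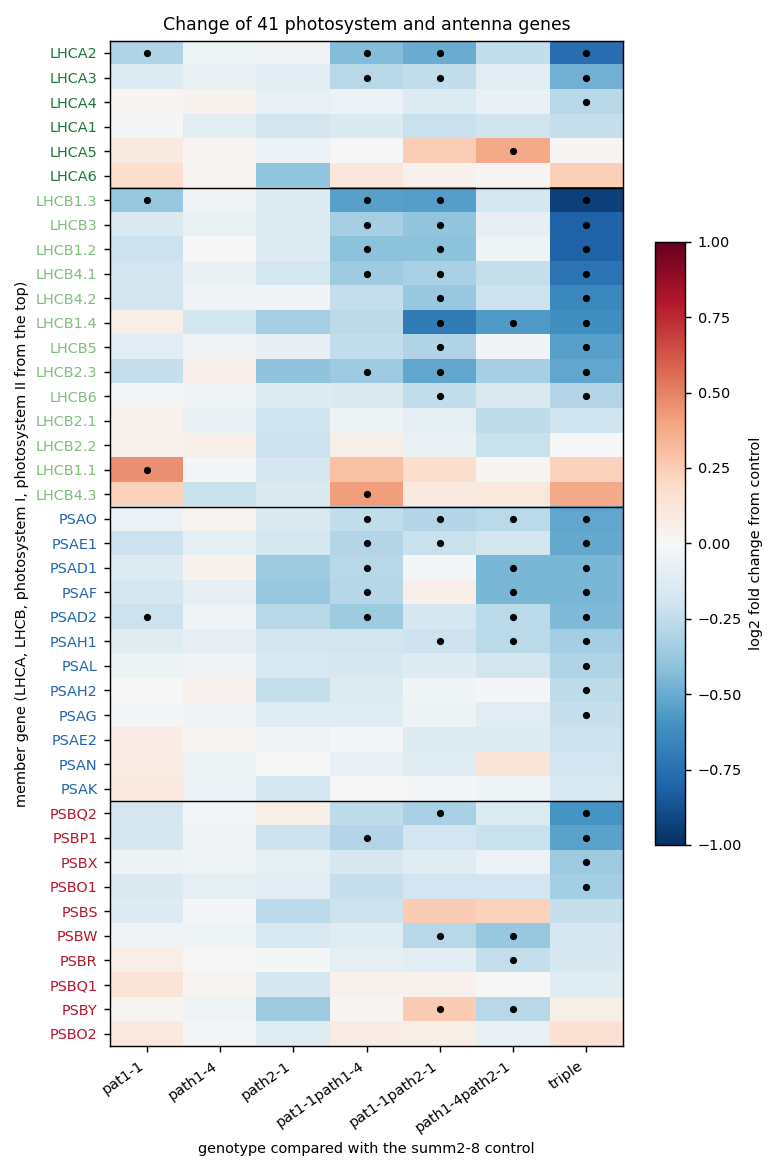
Log2 fold change from the control (colour, cut at 1 and -1) of the 41 tested members (vertical axis) in the 7 mutant genotypes (horizontal axis), with a black dot where the edgeR adjusted p was below 0.05. LHCA2 and LHCB1.3 have dots in the 4 genotypes with pat1-1 and in no other.

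Across genotypes, LHCA2 and LHCB1.3 were the 2 members that fell in all 4 genotypes with pat1-1. Their calls in pat1-1 itself ended in 3 and 4 settings. Neither was called in the 3 genotypes without pat1-1, but in path1-4 and path2-1 hardly any gene was called (0.177 and 0.0197% of all genes). How many of all genes share this pattern was not counted. PSBY was the single member called in both directions, higher in pat1-1path2-1 and lower in path1-4path2-1, and these calls ended in 21 and 12 settings. There were 10 members that were called in none of the 7 genotypes, and the matching share of all genes was not counted. The 7 comparisons share the control libraries, so they are not independent of each other.

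Comparing the triple combination with each double asks what the third mutation added. Against pat1-1path1-4, which differs by path2-1, 9 members fell and 0 rose (8.13% of all genes were called higher and 8.71% lower). They were 6 LHCB genes, LHCA2, PSAO and PSBQ2, led by LHCB3 (-0.48 ± 0.11, edgeR adjusted p = 0.00389). This count was 3 without pat1-1path1-4 replicate 1, 5 without its replicate 2, 3 and 4 without triple replicates 2 and 3, 15 without triple replicate 1 and 1 with only the compared libraries. Against pat1-1path2-1, which differs by path1-4, 15 members fell and 0 rose (18.1% of all genes were called higher and 17.7% lower), 5 of them of photosystem I, and the count was 8 without triple replicate 2. PSAF (-0.51 ± 0.09, edgeR adjusted p = 0.000123) had the smallest adjusted p. Against path1-4path2-1, which differs by pat1-1, 17 fell and 4 rose (24.8% of all genes were called higher and 24.3% lower). LHCB1.2 (-0.76 ± 0.13), LHCB1.3 (-0.76 ± 0.11) and LHCB3 (-0.73 ± 0.11) fell most. PSBY (0.34 ± 0.10), LHCB2.2 (0.23 ± 0.09), PSBO2 (0.22 ± 0.08) and PSBW (0.22 ± 0.08) rose. Each of these 4 rises was lost in some settings, PSBY in 3 (edgeR adjusted p up to 0.0678), LHCB2.2 in 10 (up to 0.327), PSBO2 in 8 (up to 0.203) and PSBW in 8 (up to 0.882). In every setting that fitted them, 1 of the 9 calls against pat1-1path1-4 held, 8 of the 15 against pat1-1path2-1 and 14 of the 21 against path1-4path2-1.

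Whether a double departs from the sum of its singles was tested as an interaction. For pat1-1 with path2-1, 4 members were above that sum and 0 below it (6.97% of all genes were called higher and 7.77% lower). They were PSAF (0.61 ± 0.12, edgeR adjusted p = 0.00266), PSBY (0.58 ± 0.13, 0.00694), PSBS (0.64 ± 0.17, 0.0143) and PSAD1 (0.47 ± 0.13, 0.0216), the values after each estimate being edgeR adjusted p. PSAF shows the pattern, with 8424, 8957 and 9198 CPM in the control libraries, 7686, 8046 and 7752 for pat1-1, 7061, 7288 and 6075 for path2-1 and 9568, 9466 and 8491 for pat1-1path2-1. Both singles lay below the control while the double overlapped it. The PSAD1 call ended without path2-1 replicate 3 (0.0517) and without pat1-1path2-1 replicate 1 (0.0630) or 2 (0.0509). For pat1-1 with path1-4 edgeR called 0 members (0.0442% of all genes), with 0 at an unadjusted p below 0.05 (6.2% of all genes) and 0 by DESeq2. For path1-4 with path2-1 edgeR called 0 (8.23% of all genes). At an unadjusted p below 0.05 there were 2 members, both higher, against 25.5% of all genes in either direction. DESeq2 called 2 members, beside 1019 of 28486 genes called higher and 953 lower.

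Paralogs of the LHCB1 and PSBO families did not keep their proportions. LHCB1.1 held 10.4, 11.7 and 12.4% of the summed TPM of the 4 counted LHCB1 genes in the control and 20.7, 22.6 and 23.0% in the triple combination. Over all genotypes its share was 10.4 to 13.7% in the 12 libraries without pat1-1 and 16.9 to 23.0% in the 12 with it. The share of LHCB1.3 was 65.4 to 70.4% and 56.1 to 63.2%, so the ranges did not overlap for either gene. Those of LHCB1.2 and LHCB1.4 overlapped. PSBO2 held 20.5 to 23.7% of PSBO TPM without pat1-1 and 24.6 to 29.1% with it. In the LHCB2, LHCB4, PSAD, PSAE, PSAH and PSBQ families the ranges overlapped. LHCB1.1, LHCB1.2 and LHCB1.3 are 95.6 to 96.4% identical in coding sequence and PSBO1 and PSBO2 83.6%, so reads may have been split between LHCB1 genes and their single values are uncertain. With counts summed over a family, LHCB1 fell in the triple combination to a log2 fold change of -0.68 ± 0.12 (edgeR adjusted p = 9.63e-05) and LHCB4.1 with LHCB4.2 to a log2 fold change of -0.70 ± 0.09 (edgeR adjusted p = 2.82e-06). LHCB2 did not pass the test, with -0.21 ± 0.09 (edgeR adjusted p = 0.0676).

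**Figure D4:**
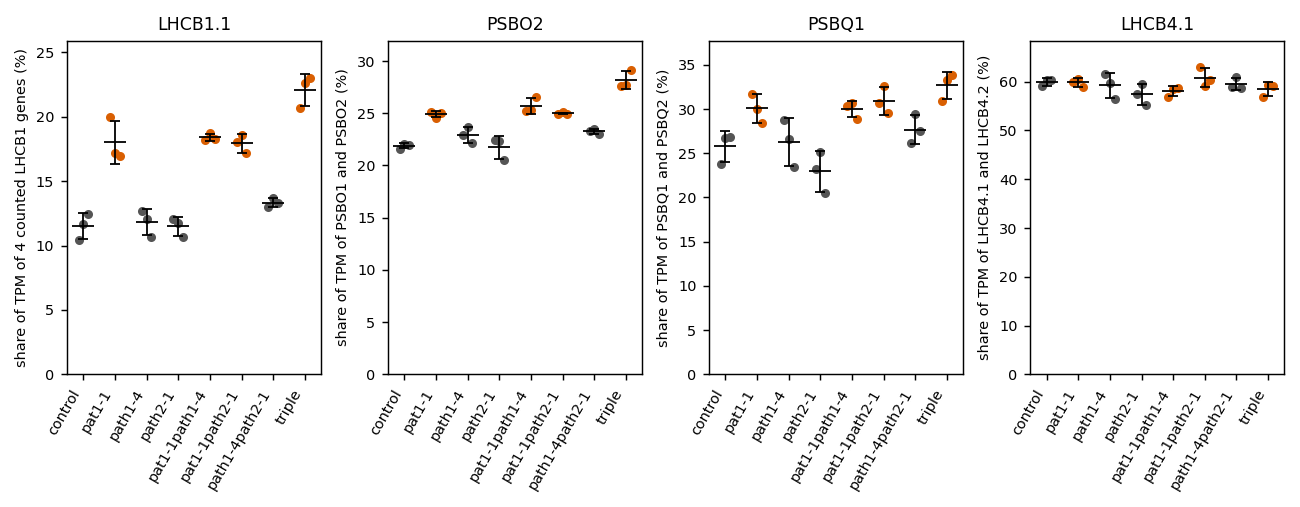
Share of family TPM (vertical axis, percent) held by LHCB1.1, PSBO2, PSBQ1 and LHCB4.1 in each library by genotype, with orange points for genotypes with pat1-1, grey points for those without and bars for mean ± SD. The orange and grey ranges are apart for LHCB1.1 (16.9% and above against 13.7% and below) and PSBO2, and overlap for PSBQ1 and LHCB4.1.

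Counts of other photosynthesis genes called in the triple combination stand beside the 22.8% of all genes called higher and 22.6% called lower. Of 24 chlorophyll synthesis genes 6 rose and 4 fell. PORA and PORB, for light-dependent protochlorophyllide reductases, fell most (-3.46 ± 0.21 and -1.58 ± 0.15), while HEMA1, for the first committed enzyme of the pathway, rose (0.78 ± 0.15) and GSA1, for the aminotransferase that makes aminolevulinate, fell (-0.56 ± 0.08). Of 14 tested genes for electron carriers and ATP synthase 3 rose and 1 fell, among them the ferredoxin gene FD1 (1.11 ± 0.13) and PGR5 (0.51 ± 0.09), for cyclic electron flow. Of 18 carbon fixation genes 5 rose, such as GAPA1 (0.62 ± 0.12) and the Rubisco small subunit gene RBCS1A (0.48 ± 0.15), and 3 fell. Of 19 genes for antenna delivery, assembly and kinases 5 rose, with OHP1 (0.77 ± 0.12) highest among them, and 3 fell, with LTD (-0.37 ± 0.10), for delivery of antenna proteins, lowest. In these 4 lists 21.4 to 27.8% of tested genes were called higher and 7.14 to 16.7% lower, so the shares called higher lay close to that of all genes. All genes named here passed edgeR's test, and the medians of the lists were 0.07, -0.04, 0.19 and 0.11, beside 0.00 over all genes.

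**Figure D5:**
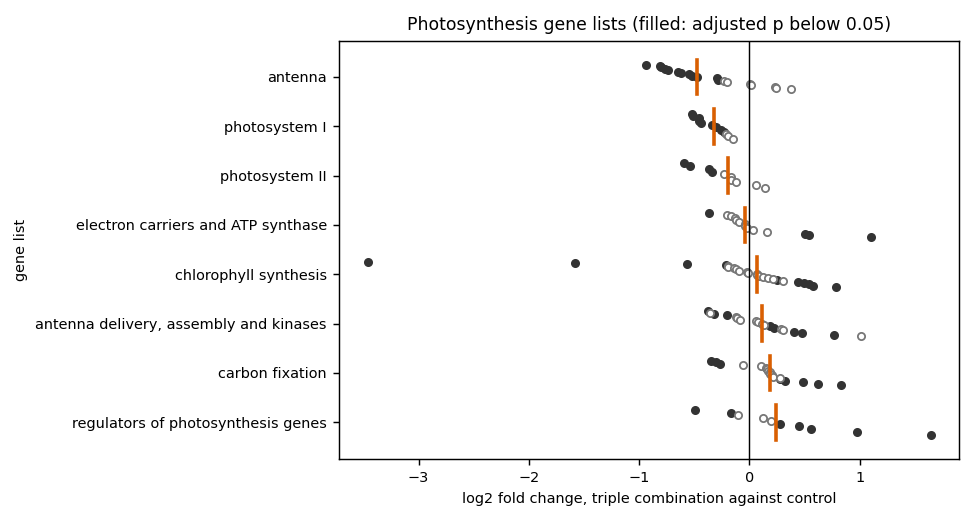
Log2 fold change in the triple combination against the control (horizontal axis) of every tested gene in 8 lists (vertical axis), with filled points for an edgeR adjusted p below 0.05 and an orange line at each list's median. The medians lie below 0 for the antenna (-0.48), photosystem I (-0.32), photosystem II (-0.20) and electron carriers, and above 0 for the other 4 lists.

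Of 10 regulators of photosynthesis genes 5 rose and 2 fell in the triple combination, beside 22.8% of all genes called higher and 22.6% lower. GLK1, for a transcription factor that activates antenna and chlorophyll synthesis genes, had 526, 489 and 475 CPM in the control and 362, 335 and 361 in the triple combination, with no overlap (-0.50 ± 0.08). GLK2 fell by less (-0.17 ± 0.06), while the GATA factor genes GNL (1.65 ± 0.17) and GNC (0.45 ± 0.07), the light signalling gene HY5 (0.97 ± 0.16) and the sigma factor gene SIG5 (0.56 ± 0.07) rose. Of 9 tested clock genes 4 rose and 3 fell. LHY, a gene expressed at dawn, had 48.3, 42.8 and 43.2 CPM against 191, 217 and 206, and CCA1, also of dawn, was at 0.98 ± 0.07. TOC1 (0.34 ± 0.07) and LUX (0.56 ± 0.19), expressed in the evening, rose too. PRR9 (-0.33 ± 0.07), a morning gene, fell, as did PRR5 (-0.94 ± 0.26) and GI (-0.63 ± 0.07), expressed later in the day. The hour of harvest is not in the labels, and the part of the clock genes in the members' changes was not tested.

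Markers of other organs and cell types were compared in the same way, with 22.8% of all genes called higher and 22.6% lower. The summed level of the 3 tested root markers was 66.4 to 105 CPM in the control and 152 to 191 in the triple combination, where all 3 rose, led by PYK10 (1.76). Vascular markers summed to 172 to 198 CPM against 112 to 142, and 2 of 5 fell, SUC2 (-0.77) and APL (-0.29). IRX1 (-0.32), IRX3 (-0.20) and XCP1 (0.14) were not called, and their libraries overlapped the control. Epidermis and guard cell markers summed to 551 to 733 CPM against 588 to 701, with overlap, and 3 of 5 fell. Senescence markers summed to 124 to 186 CPM against 124 to 157 (2 of 5 rose and 1 fell), also with overlap. The 2 tested floral organ markers summed to under 4 CPM in every library. At these low levels PI rose (2.66 ± 0.61) and AG fell (-2.04 ± 0.34) in the triple combination. The markers WER and PHT1;1 of roots and AP1, AP3 and SEP3 of flowers were too low to test. The part of these cell types in the members' changes was not tested. Members also have shorter transcripts than genes at large (median exon length 1223 against 1771 bases) and more GC (43.8 against 41.1%). With per-library trends in length and GC removed, 29 members fell in the triple combination, against 25 before. In that setting 4505 of 20346 genes were called lower.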

How the data were processed

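RNA-seq counts of above-ground tissue were analysed for 24 libraries of 8 genotypes. Per the submitters' processing notes, STAR 2.5.1b and TAIR10 were used. How reads were counted, on which annotation and with which strand setting, is not given in the sources used here. Whole-number counts per gene were deposited by the authors, with TPM, whose ratio to the counts was constant within 1% after library scaling for 28486 of 28486 genes. Columns were matched to genotypes by the library numbers in the labels, and 0 columns were left unmapped. Members and gene lists were chosen with earlier results of these data known.

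From the counts, R 4.3.3 and edgeR 4.0.16 (filterByExpr, TMM, glmQLFit, glmQLFTest, 20346 genes) fitted 1 term per genotype to all libraries, with Benjamini-Hochberg adjustment over all genes tested. The biological coefficient of variation was 10.9%. Class shares were summed from the deposited TPM. Values per library are given for the 3 smallest adjusted p, the largest and smallest change and the highest control level in LHCA, LHCB, photosystem I and photosystem II, and for atypical members; of other lists up to 4 genes with the smallest adjusted p are eligible, and others were named after their values were seen. Gene positions, exon overlap and promoters come from the RefSeq annotation of TAIR10.1. Alternatives were DESeq2 1.42.0, RLE factors, no count filter, organelle genes removed, length and GC trends removed, paralogs summed, only the compared genotypes, the 2 doubles with path2-1 left out, and each library left out. The edgeR test was also run on counts simulated from its own fitted dispersions, which cannot show how well it performs on these data.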

Additional observations from a re-analysis of the deposited data

Results flagged for a closer look

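For 4 members the effect of path2-1 differed with and without pat1-1, by the interaction of pat1-1 with path2-1 in edgeR's test with Benjamini-Hochberg adjustment over all genes. In each the double lay above the sum of its singles on the log2 scale, by 0.61 for PSAF (adjusted p = 0.00266), 0.64 for PSBS (adjusted p = 0.0143), 0.58 for PSBY (adjusted p = 0.00694) and 0.47 for PSAD1 (adjusted p = 0.0216). The path2-1 single was below the control for all 4 genes, and the 3 libraries of pat1-1path2-1 were above all 3 path2-1 libraries in each of them. Among all genes 6.97% were called higher and 7.77% lower in this interaction, so such departures were not particular to the members. The libraries of pat1-1path2-1 lay apart from other genotypes on the second principal component, and the part of that in these values was not tested.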

How the results depend on the processing

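Of 41 tested members, the count called in pat1-1 was 4, and it was 2 without the 2 doubles with path2-1, 0 with only the compared genotypes and 1 with paralogs summed. In path2-1 edgeR called 0 and DESeq2 4. In pat1-1path1-4 the count of 14 was 9 without those doubles and 6 with only the compared genotypes. In pat1-1path2-1 the count of 17 was 10 with paralogs summed. In path1-4path2-1 the count of 10 was 6 with no count filter, 6 with length and GC trends removed and 6 with only the compared genotypes. In the triple combination against pat1-1path1-4 the count of 9 was 5 without the doubles and 1 with only the compared genotypes. The interaction of path1-4 with path2-1 had 0 members called, 2 with DESeq2 and 3 with trends removed. Fewer samples or fewer features were fitted where genotypes were left out or paralogs summed; for the other settings the cause was not tested.

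With each library of the compared genotypes left out in turn, the counts were 0 to 3 in pat1-1, 0 in path1-4 and in path2-1, 6 to 16 in pat1-1path1-4, 10 to 17 in pat1-1path2-1, 5 to 11 in path1-4path2-1 and 20 to 29 in the triple combination. They were 3 to 15, 8 to 20 and 16 to 23 for the triple combination against pat1-1path1-4, pat1-1path2-1 and path1-4path2-1. Interactions gave 0 for pat1-1 with path1-4, 3 to 5 for pat1-1 with path2-1 and 0 to 2 for path1-4 with path2-1. No value reversed its direction past the test in any setting tried. Of 25 calls in the triple combination, 19 held in every setting that fitted the gene, libraries of other genotypes left out included, as did 5 of 14 in pat1-1path1-4, 8 of 17 in pat1-1path2-1, 3 of 10 in path1-4path2-1, 0 of 4 in pat1-1, and 3 of 4 for the interaction of pat1-1 with path2-1. No paired analysis was possible because the library numbers are unique across genotypes and the labels share no replicate number. Depth limits little here, since the lowest count of a tested member in a library was 334.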
